A study of Mus musculus with 4 samples.

Results

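Interferons are secreted signals that put cells into an antiviral state and raise the display of peptides on MHC class I, the surface complex that shows samples of a cell's own proteins to T cells. Type I interferons act through the receptor chains IFNAR1 and IFNAR2, and interferon gamma acts through IFNGR1 and IFNGR2. Downstream, STAT and IRF transcription factors switch on interferon-stimulated genes, which include the cytosolic RNA sensors, the antiviral effectors and the machinery that cuts, transports and loads class I peptides. Brain endothelial cells (ECs) carry both receptors and face the blood, and many of these genes are transcribed at a low level without infection.

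The genes described here are 44 symbols chosen by name, with earlier results of these data known. Of these, 41 are among the 12693 gene symbols of the deposited table. The 3 that are not listed are *Ifit1*, *Ifit3* and *Dhx58*. They were placed in 5 roles by known function: receptors (4 of 4 measured), cytosolic sensors and their regulators (5 of 6), transcription factors (5 of 5), effectors and regulators (18 of 20) and class I antigen presentation (9 of 9). No listed gene lacks reads in any sample, and the sparsest one has 21 reads in total. Absence from the table therefore gives no value and does not show that a gene is silent.

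RNA was sequenced from CD31-sorted cells of the embryonic day 18 cerebral cortex of C57BL/6 mice, with 2 wild-type (WT) samples and 2 samples of the genotype FOXQ1fl/fl;Tie2-Cre, called *Foxq1* cKO below. CD31 is an endothelial surface protein. In the cKO mice, Cre recombinase driven by the Tie2 promoter removes the floxed *Foxq1* gene, and Tie2 is active in endothelium and also in part of the blood lineage. The labels call the controls WT, and the methods describe controls as littermates without the Cre transgene. The sources used here do not say how many embryos went into a sample, so the tests measure the spread between these samples only.

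The level of a gene is given in normalized counts, the reads counted on the gene divided by 1 size factor per sample, with between 15827166 and 21466436 reads per sample on listed genes. *Foxq1* itself had 353 and 297 normalized counts in the WT samples against 5.44 and 32.6 in the cKO samples, a log2 fold change of -4.47 (95% interval -7.01 to -1.92, the test described below), so the targeted gene went with the labels. Its exons overlap *A530084C06Rik* on the opposite strand. All 9 endothelial markers were measured, with sums of 260131 and 235150 in WT against 214747 and 231323 in cKO. The samples also held transcripts of pericytes (5 of 7 markers, summed level 127303 to 136439) and of microglia and macrophages (13 of 13 markers, summed level 7839 to 12796). Markers of neural progenitors and glia (7 of 8, 21805 to 22768), erythroid cells (6 of 9, 15683 to 20673), neurons (6 of 7, 4094 to 5848) and fibroblasts (2 of 4, 2139 to 4595) were found too. None of the 5 lymphocyte markers was listed. In such bulk samples, fewer cells of a type and less RNA per cell cannot be told apart.

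Interferon-stimulated genes are commonly bound through 2 short elements. The interferon-stimulated response element (ISRE), bound by IRFs, was searched as GAAA, 2 bases of any kind and GAAA, and the gamma-activated site (GAS), bound by STAT dimers, as TTCNNNGAA. Both strands were read over 300 bases per start site, 250 before and 50 after, in RefSeq promoters of the GRCm38 assembly. A RefSeq promoter was found for 35 of the 41 genes. The ISRE letters stood in 10 of these 35 and in 3.44% of all 32851 promoters, and the GAS letters stood in 10 of the 35 and in 8.3% of all promoters. A gene was counted if any of its promoters had a match, while the shares are per promoter, so the units differ. In *Bst2* and *Ifitm3*, matches to the 2 motifs overlapped. The 4 stretches below are examples. *Irf1*, *B2m* and *Ifitm2* have a match and differed between the genotypes at an unadjusted p under 0.05 in the limma test below. *Isg15* is the textbook target, with 3 overlapping ISRE matches. *Ifih1* and *Ifitm3* also differed at that p and have matches, which begin after the start site and are not shown. *Tapbp*, *Psmb10*, *Tap1*, *Xaf1* and *Irf3* differed at that p too but had no match or no promoter. A link between matches and differences was not tested. Capitals mark the match, and each stretch ends before the start site.
Irf1, GAS, chr11:53769884-53769972, plus strand: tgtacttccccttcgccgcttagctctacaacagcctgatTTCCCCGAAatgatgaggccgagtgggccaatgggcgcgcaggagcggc
B2m, ISRE, chr2:122147508-122147597, plus strand: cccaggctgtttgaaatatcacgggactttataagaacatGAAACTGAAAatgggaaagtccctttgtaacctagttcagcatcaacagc
Ifitm2, ISRE, chr7:140955962-140956047, minus strand: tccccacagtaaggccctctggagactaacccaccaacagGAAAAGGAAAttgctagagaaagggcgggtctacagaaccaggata
Isg15, ISRE, chr4:156200835-156200936, minus strand: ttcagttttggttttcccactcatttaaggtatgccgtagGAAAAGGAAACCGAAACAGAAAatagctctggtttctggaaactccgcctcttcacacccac

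Compared across genotypes, 10 of the 41 genes differed at an unadjusted p under 0.05 in limma, a linear model fitted across all genes on log2 of the normalized count plus 1. Of these, 9 were higher in *Foxq1* cKO cells (*Irf1*, *Ifih1*, *Ifitm2*, *Ifitm3*, *Xaf1*, *Psmb10*, *Tap1*, *Tapbp* and *B2m*) and 1 was lower (*Irf3*). That is 22% of the genes in the higher direction, where 2.17% of all 12472 genes tested were higher at that level, and 2.44% in the lower direction, where 3.05% of all genes were lower. The median log2 fold change was 0.35 over the 41 genes and 0.0086 over all genes tested. The list was chosen with earlier results of these data known, so these shares and medians describe it and do not test it. No gene passed Benjamini-Hochberg adjustment over the table (0% of genes, against 651 at an unadjusted p under 0.05), and the adjusted p of the 41 genes was 0.857 or above. Each of the 10 genes is therefore a difference between these samples at an unadjusted p. In limma with eBayes without a trend, which does not let the variance prior follow the mean level, 5 genes were higher and 0 lower, since *B2m*, *Tapbp*, *Ifitm3*, *Ifih1* and *Irf3* no longer passed. In that setting 2.7% of all genes tested were higher and 2.71% lower. With 1 sample left out and limma's spread pooled from the remaining samples, 7 genes were higher without WT 1, 10 without WT 2, and only 2 without cKO 1 or without cKO 2. Over all genes tested, the higher share was 4.07% without WT 1, 7.89% without WT 2, 0.53% without cKO 1 and 0.852% without cKO 2.

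**Figure D1:**
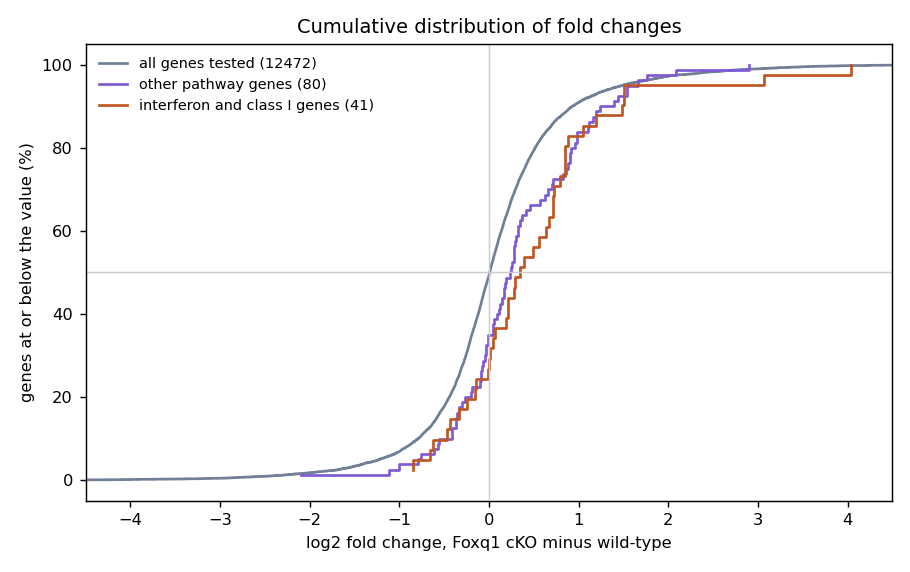
Cumulative share of genes (percent, vertical axis) at or below each log2 fold change, *Foxq1* cKO minus WT (horizontal axis), for all 12472 genes tested, the 41 interferon and class I genes and 80 other genes of the pathway. The curve of the 41 genes crosses 50% at 0.35 and that of all genes at 0.0086.

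A looser description of the same samples counts genes whose groups lie apart, and all 10 genes above are among them. In 18 of the 41 genes (43.9%) both cKO samples lay above both WT samples, an arrangement found in 18% of all genes tested. In 4 genes (9.76%) both lay below, against 18% of all genes. The 4 were *Adar*, *Ifngr2*, *Irf3* and *Rnf213*. In the remaining 19 genes the groups overlapped.

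**Figure D2:**
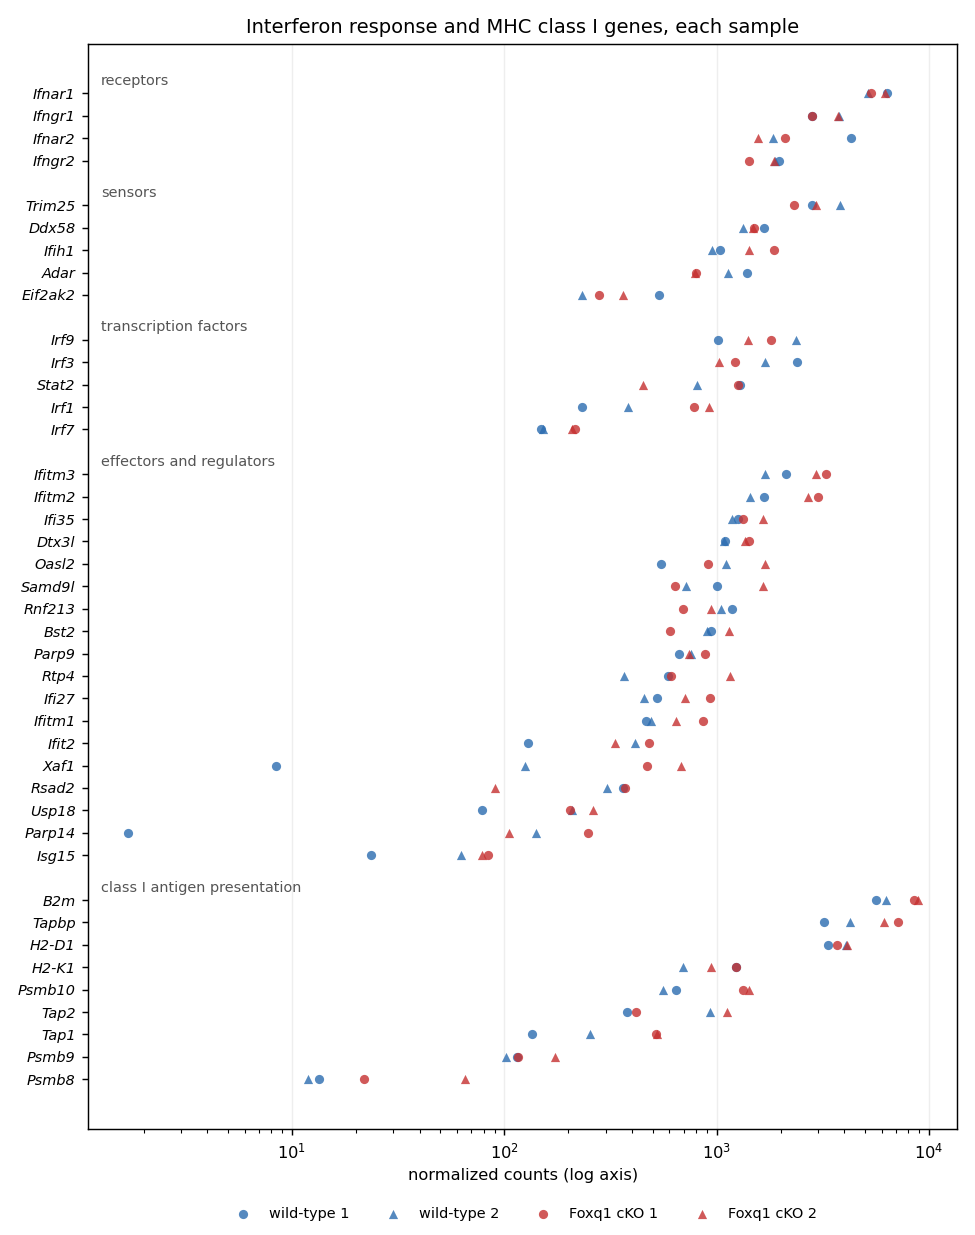
Normalized counts (horizontal log axis) of the 41 genes in each sample, by role and in order of mean level, with circles for sample 1 and triangles for sample 2 of WT (blue) and *Foxq1* cKO (red). *Xaf1* and *Parp14* stand out by WT values of 8.43 and 1.69 in sample 1, far below the other samples.

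**Figure D3:**
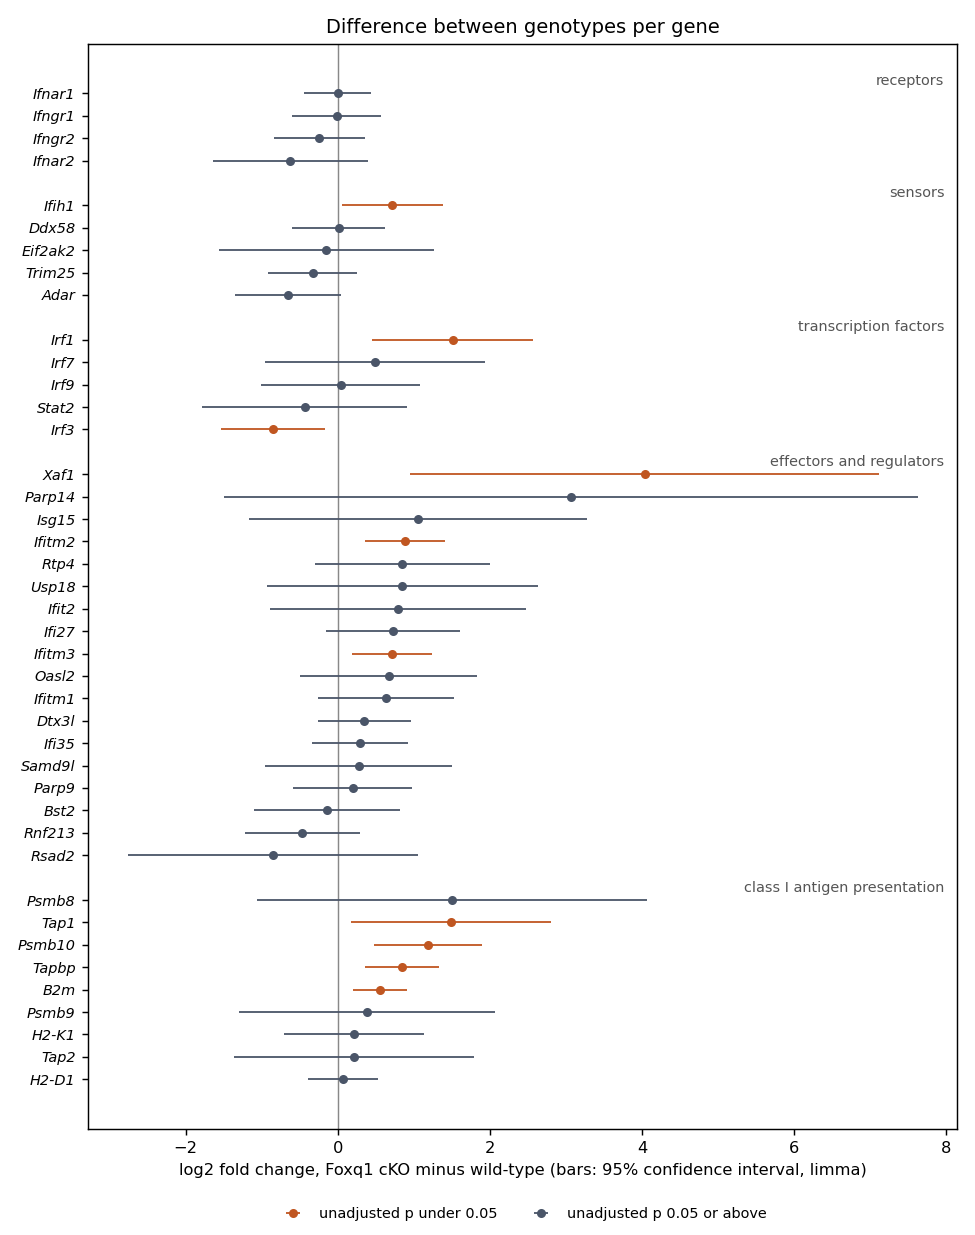
Log2 fold change (*Foxq1* cKO minus WT, horizontal axis) of each gene with its 95% confidence interval from limma, by role. The intervals of 10 genes, in orange, lie to 1 side of 0, and only that of *Irf3* lies below it.

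The receptors showed no difference that passed the test. *Ifnar1*, the first chain of the type I receptor, had 6373 and 5176 normalized counts in WT and 5322 and 6194 in cKO. The groups overlapped fully, with a log2 fold change of -0.0004 and a 95% interval from -0.44 to 0.44. *Ifnar2*, its partner chain, had 4277 and 1846 in WT and 2107 and 1574 in cKO. Its log2 fold change was -0.63 (standard error 0.42, 95% interval -1.64 to 0.39), and the gap between its WT samples was wider than the gap between the group means. *Ifngr1*, the ligand-binding chain for interferon gamma, had 2816 and 3778 in WT and 2816 and 3714 in cKO, a log2 fold change of -0.01 with an interval from -0.60 to 0.57. *Ifngr2*, the second gamma chain, had 1965 and 1880 in WT and 1420 and 1861 in cKO. Both cKO values were the lower ones, but the interval of the log2 fold change of -0.24 ran from -0.84 to 0.35 and so spanned 0. Per kilobase of annotated exon, the 4 receptor genes were among the better expressed of the 41, with *Ifngr1* at 1153, *Ifnar1* at 971, *Ifnar2* at 736 and *Ifngr2* at 473 normalized counts per kilobase over the 4 samples.

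Among the sensors, *Ifih1* and *Adar* had the largest differences, in opposite directions. *Ifih1* encodes MDA5, a sensor of long double-stranded RNA, and had 1036 and 954 normalized counts in WT and 1874 and 1427 in cKO. The groups did not overlap, and the log2 fold change was 0.72 (standard error 0.27, 95% interval 0.05 to 1.38). *Adar* encodes the enzyme that edits adenosine in double-stranded RNA, which keeps self RNA from triggering MDA5, and it had 1384 and 1132 in WT against 798 and 790 in cKO. Both cKO samples were lower, with a log2 fold change of -0.66 (standard error 0.29) and a 95% interval from -1.35 to 0.04, so the difference did not pass. Its exons overlap *Chrnb2* on the opposite strand, and whether counting used the strand is not given in the sources used here. *Trim25*, a ubiquitin ligase of the RIG-I pathway and the sensor-group gene with the highest mean, had 2823 and 3806 in WT and 2313 and 2942 in cKO, a log2 fold change of -0.33 (95% interval -0.91 to 0.25). *Ddx58*, which encodes RIG-I itself, had a log2 fold change of 0.01, and *Eif2ak2*, which encodes the kinase PKR, one of -0.15.

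The 2 transcription factors with an unadjusted p under 0.05 differed in opposite directions. *Irf1*, an interferon-inducible activator of class I and antigen-processing genes, had 232 and 382 normalized counts in WT and 785 and 917 in cKO. Each cKO value was more than 2 times the higher WT value, the mean was 2.77-fold higher, and the log2 fold change was 1.51 (standard error 0.43, 95% interval 0.45 to 2.57). *Irf3*, which is present before infection and is activated by phosphorylation downstream of the RNA and DNA sensors, had 2402 and 1688 in WT and 1215 and 1029 in cKO. Its log2 fold change was -0.85 (standard error 0.28, 95% interval -1.53 to -0.16), and its cKO mean was 54.9% of the WT mean. *Irf9*, an IRF that binds the ISRE and the highest of this group by mean, had 1015 and 2360 in WT and 1804 and 1404 in cKO. Its WT samples enclosed both cKO samples, and the log2 fold change was 0.04. *Irf7*, the amplifier of type I interferon production, was low, at 148 and 152 in WT and 216 and 208 in cKO. *Stat2* had a log2 fold change of -0.44 with an interval from -1.78 to 0.91.

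**Figure D4:**
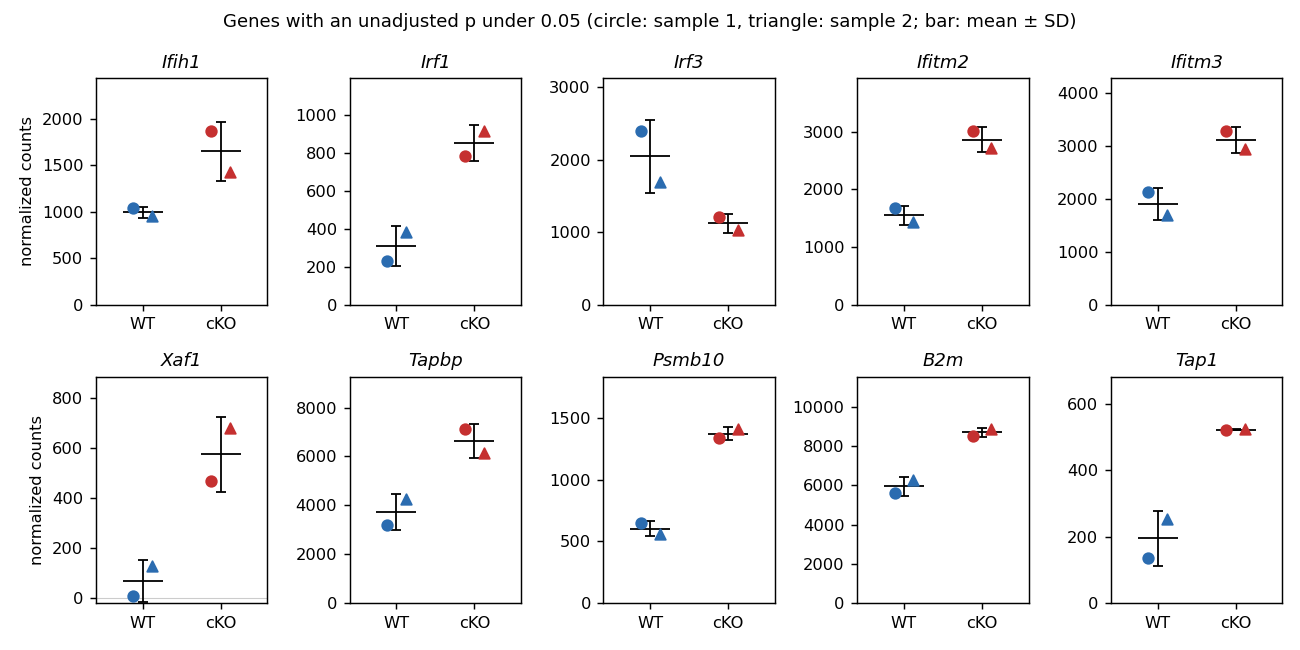
Normalized counts (vertical axis, each panel with its own scale) of the 10 genes with an unadjusted p under 0.05, with 1 point per sample and the mean ± SD (n = 2) of WT and *Foxq1* cKO. In all 10 panels the groups do not overlap, which the choice of genes by this p favours, and *Irf3* is the only one lower in cKO. Over all genes tested, the groups lay apart in 18% in each direction.

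Of the 18 effectors and regulators, 3 were higher at an unadjusted p under 0.05 in limma, none was lower, and 15 did not pass. Over all genes tested, 2.17% were higher and 3.05% lower at that p. The IFITM proteins sit in membranes and hinder the entry of enveloped viruses, and their 3 genes were all higher in both cKO samples. *Ifitm3* had 2118 and 1693 normalized counts in WT and 3286 and 2939 in cKO, a log2 fold change of 0.71 (standard error 0.22, 95% interval 0.18 to 1.25). *Ifitm2* had 1668 and 1435 in WT and 3017 and 2707 in cKO, a log2 fold change of 0.88 (standard error 0.22, 95% interval 0.36 to 1.41). *Ifitm1* had 467 and 492 in WT and 861 and 646 in cKO, and its log2 fold change of 0.64 (standard error 0.37) had an interval from -0.26 to 1.53. Of the 50-base stretches in their annotated transcripts, 48.5% of those of *Ifitm2*, 10.02% of *Ifitm3* and 5.02% of *Ifitm1* also occur in transcripts of other genes, among them *Gm45717* and the pseudogene *Gm11951* for *Ifitm2*, so the split of reads between each gene and these other transcripts is uncertain.

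*Xaf1*, an interferon-induced gene that promotes cell death, had the largest fold change of the 41. It had 8.43 and 126 normalized counts in WT, from 10 and 126 reads, and 469 and 681 in cKO. Both cKO samples were far above both WT samples, but the WT samples were 14.9-fold apart, so the size of the difference is poorly fixed. The log2 fold change was 4.03 (standard error 1.26, 95% interval 0.95 to 7.12), and it was 2.16 without WT 1 and 5.91 without WT 2. *Parp14*, an ADP-ribosyltransferase, was more uneven still, with 1.69 and 142 in WT and 249 and 106 in cKO, and did not pass (log2 fold change 3.06, 95% interval -1.50 to 7.63).

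*Isg15*, a ubiquitin-like modifier, had 23.6 and 62.8 normalized counts in WT and 83.8 and 78.3 in cKO, a log2 fold change of 1.05 with a standard error of 0.91. *Ifit2*, which binds viral RNA, had 129 and 411 in WT and 479 and 333 in cKO, and its groups overlapped. *Usp18*, which removes ISG15 and dampens receptor signalling, had 78.4 and 208 in WT and 204 and 261 in cKO. In *Isg15*, *Ifit2* and *Usp18*, WT 1 held the lowest value. *Rsad2*, which encodes the antiviral enzyme viperin, had 361 and 304 in WT and 370 and 90.5 in cKO, the largest negative log2 fold change of the group at -0.85 (standard error 0.78, 95% interval -2.76 to 1.06). It was lowest in cKO 2, and without that sample its log2 fold change was 0.16. The 18 effectors and regulators had a median log2 fold change of 0.69, which was 0.35 without WT 1. In 9 of the 18 both cKO samples lay above both WT samples, against 18% of all genes tested. *Ifi27*, *Rtp4*, *Dtx3l* and *Ifi35* were among the 9.

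All 9 genes of class I antigen presentation had a positive log2 fold change, 4 of them at an unadjusted p under 0.05 in limma, with a group median of 0.55. Over all 12472 genes tested, 6323 had a positive log2 fold change and 2.17% were higher at that p. *B2m*, the invariant light chain of every class I complex, had 5609 and 6279 normalized counts in WT and 8540 and 8878 in cKO. The 2 groups were well apart, with a log2 fold change of 0.55 (standard error 0.14, 95% interval 0.20 to 0.90). It was also the gene with the highest level per length, with 6912 normalized counts per kilobase of exon in WT and 10127 in cKO. *Tapbp*, which encodes tapasin, the bridge between the peptide transporter and the class I molecule, had 3199 and 4252 in WT and 7125 and 6140 in cKO, a log2 fold change of 0.84 (standard error 0.20, 95% interval 0.35 to 1.33). *Tap1*, one of the 2 subunits of the peptide transporter, had 136 and 253 in WT and 520 and 524 in cKO, a log2 fold change of 1.49 (standard error 0.54, 95% interval 0.18 to 2.80). Its partner *Tap2* did not pass, with 378 and 934 in WT and 419 and 1122 in cKO. Sample 2 was the higher in both genotypes for *Tap2*, and its log2 fold change was 0.21 with an interval from -1.37 to 1.79. That interval includes the log2 fold change of *Tap1*, and the contrast between the 2 genes was not tested.

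The class I heavy chains, the polymorphic part of the complex, showed no difference that passed the test. *H2-D1* had 3361 and 4087 normalized counts in WT and 3680 and 4103 in cKO, a log2 fold change of 0.07 with an interval from -0.39 to 0.53. *H2-K1* had 1235 and 698 in WT and 1237 and 939 in cKO, a log2 fold change of 0.21 with an interval from -0.71 to 1.14. In both genes the groups overlapped, and the contrast between heavy chains and *B2m* was not tested. The 2 genes share sequence with each other and with the H2-Q genes, and 12.8% of the 50-base stretches of *H2-D1* and 9.63% of those of *H2-K1* occur in other genes.

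Interferon exchanges 3 subunits of the proteasome for immunoproteasome forms that favour class I peptides. *Psmb10* had 647 and 561 normalized counts in WT and 1338 and 1414 in cKO, a log2 fold change of 1.19 (standard error 0.29, 95% interval 0.48 to 1.90). *Psmb9* had 115 and 102 in WT and 116 and 173 in cKO, and *Psmb8* had 13.5 and 11.96 in WT and 21.8 and 65.1 in cKO. Neither passed the test, the lower cKO value of *Psmb9* lay only just above its higher WT value, and that of *Psmb8* rested on 20 reads, at log2 fold changes of 0.39 (standard error 0.69) and 1.5 (standard error 1.05). *Psmb9* and *Tap1* share exon sequence on opposite strands. The subunits they replace had smaller differences that did not pass: 0.37 for *Psmb5* (812 and 676 in WT, 997 and 921 in cKO), 0.28 for *Psmb6* (1004 and 1167 in WT, 1285 and 1355 in cKO) and 0.28 for *Psmb7* (2510 and 2509 in WT, 2923 and 3178 in cKO), each on the log2 scale. Per kilobase of exon, *Psmb10* stood at 51.7% and 44.9% of *Psmb7* in WT and at 91.8% and 89.3% in cKO. *Psmb9* stood at 5.88% and 4.46% of *Psmb6* in WT and 4.64% and 6.53% in cKO, and *Psmb8* at no more than 1.88% of *Psmb5* in any sample. The ratios overlapped between the genotypes for *Psmb9*, and for *Psmb10* the gap between the genotypes was larger than the gap within either.

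**Figure D5:**
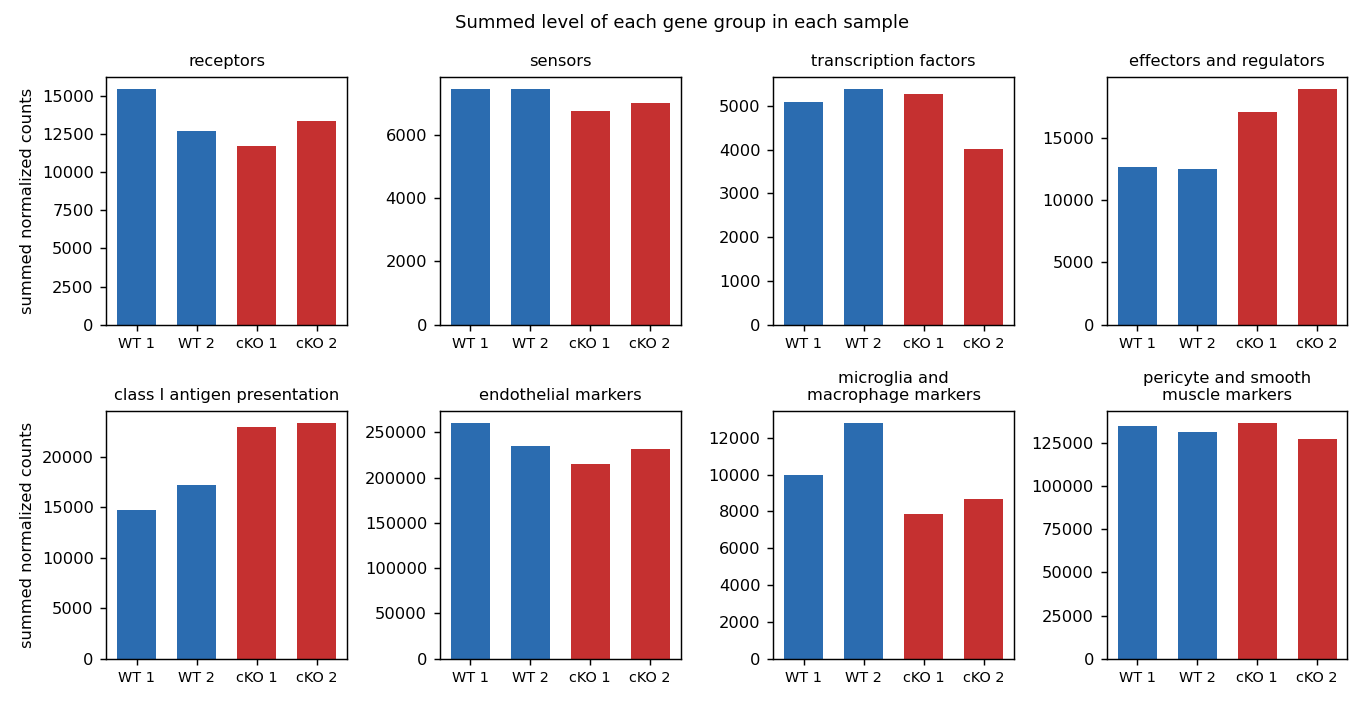
Summed normalized counts (vertical axis from 0, each panel with its own scale) of each role and of 3 marker lists in every sample. The class I sum was 14694 and 17178 in WT and 22998 and 23358 in cKO, the effector sum 12672 and 12504 against 17039 and 18917, and the microglia and macrophage sum 9997 and 12796 against 7839 and 8684.

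Microglia and macrophages also transcribe class I and interferon-stimulated genes, so their markers are given beside these results. The summed level of their 13 markers was lower in both cKO samples, at 0.725 times the WT sum. The sum follows the most abundant markers, and the median log2 fold change over the 13 genes was 0.06, the opposite sign. Among them *Csf1r*, the receptor for the macrophage growth factor, was lower at an unadjusted p under 0.05 in limma (log2 fold change -0.83, standard error 0.23), and no marker was higher at that p. *C1qc* and *Trem2* were higher in both cKO samples without passing, and *Cx3cr1* and *C1qb* were lower in both without passing. The endothelial sum in cKO was 0.901 times that in WT, with *Flt1* lower at an unadjusted p under 0.05 (log2 fold change -0.48, standard error 0.19), and the pericyte sum 0.991 times. The class I sum was higher in both cKO samples than in both WT samples. The part of these cell types in the difference was not tested.

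The rest of the pathway was read from 131 further symbols, some of them older and newer names of the same gene. They too were chosen with earlier results of these data known. Of these, 80 were measured, 4 were higher (5% of the 80, against 2.17% of all genes tested) and 3 lower (3.75%, against 3.05%) at an unadjusted p under 0.05, and their median log2 fold change was 0.24. Both counts moved with the sample left out, and so did the higher share over all genes tested given above. eBayes without a trend gave 7 higher and 1 lower, where 2.7% of all genes tested were higher and 2.71% lower. Quantile normalization gave 1 lower, where 2.81% of all genes were lower. None of 9 interferon genes was listed in the table. By role, 20 signalling genes gave 0 higher and 1 lower, 46 effectors gave 3 higher and 1 lower, and 14 class I genes, including the constitutive proteasome subunits above, gave 1 higher and 1 lower. In 25 of the 80 genes (31.3%) both cKO samples lay above both WT samples and in 9 (11.3%) below, against 18% of all genes in each direction.

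Of the 7 genes with an unadjusted p under 0.05, the largest log2 fold change was that of *Gbp9*, an interferon-inducible GTPase of the guanylate-binding family. It had 285 and 278 normalized counts in WT and 802 and 1140 in cKO, a log2 fold change of 1.76 (standard error 0.40, 95% interval 0.79 to 2.73). *Erap1* trims peptides in the endoplasmic reticulum to the length that class I molecules hold, and it had 943 and 1108 in WT and 1804 and 2660 in cKO, a log2 fold change of 1.10 (standard error 0.29, 95% interval 0.40 to 1.80). It thus went with *Tap1*, *Tapbp* and *B2m*, which act before and after it. *Trafd1*, a feedback inhibitor of innate signalling, had 1014 and 1297 in WT and 2550 and 1999 in cKO (log2 fold change 0.98, 95% interval 0.33 to 1.62). *Sp100*, a component of nuclear bodies, had 113 and 184 in WT and 443 and 403 in cKO (log2 fold change 1.54, 95% interval 0.17 to 2.91).

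The 3 lower genes act in sensing and folding. *Trim56*, a ubiquitin ligase of innate immune signalling, had 1028 and 980 normalized counts in WT and 582 and 370 in cKO (log2 fold change -1.11, 95% interval -2.03 to -0.19). *Traf6*, the ligase that relays Toll-like receptor signals, had 1037 and 1156 in WT and 393 and 753 in cKO (log2 fold change -1.01, 95% interval -2.01 to -0.01). *Calr* encodes calreticulin, a chaperone that also serves in the class I loading complex, and had 11234 and 13059 in WT and 9190 and 9563 in cKO (log2 fold change -0.37, 95% interval -0.71 to -0.03). After adjustment over the table, limma gave these 3 and the 4 higher genes an adjusted p of 0.857. In all 7 genes the cKO samples lay on 1 side of both WT samples, which their choice by an unadjusted p favours. Over all genes tested, 18% lay apart in each direction.

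Calls of single genes depended on the samples. With each sample left out in turn, *Foxq1* passed an unadjusted p of 0.05 in 4 of 4 fits. *B2m* and *Psmb10* passed in 3, failing without cKO 2, and *Ifitm2* and *Tapbp* passed in 3, failing without cKO 1. *Irf1* and *Xaf1* passed in 2, failing without either cKO sample. *Irf3* and *Tap1* passed only without WT 2, *Ifitm3* only without WT 1, and *Ifih1* in none. Among the other pathway genes, *Gbp9* and *Erap1* failed only without cKO 2, and *Trafd1* only without cKO 1. *Sp100* passed only without WT 2, *Trim56* only without cKO 1, *Traf6* only without cKO 2 and *Calr* only without WT 1. The log2 fold changes of these genes kept their sign in each of the 4 fits. That outcome was fixed, because in each of these genes both cKO samples lay on 1 side of both WT samples.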

How the data were processed

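RNA-seq of 2 WT and 2 *Foxq1* cKO samples was used. Sample groups and replicate numbers came from the labels. The authors deposited 1 table of normalized signal, in which every value is a whole multiple of 1 step per sample (100% within 0.01 of a step), as reads divided by a size factor give. The submitters' processing notes list TopHat2 2.0.12, Bowtie2 2.2.3, HTSeq 0.6.0 and the build mm9. The labels state 2 ug of total RNA per library and the paper a Smart-seq2 protocol. Repeated lines (1207361 in all) were reduced to 12693 symbols.

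Genes with a mean of at least 10 (12472) were tested with limma 3.58.1 (eBayes with a trend, R 4.3.3) after a pseudocount of 1 and log2, with Benjamini-Hochberg adjustment. On this scale the change of low genes is understated. With 2 samples against 2, an exact permutation test of 1 gene cannot go below 0.333, so none was used. The planned tests on read counts were not run, because the column of WT 2, whose step is close to 1, was not accepted as recovered reads by the check applied here. Reads given in the text are values divided by the step. Alternatives were other pseudocounts (0.1 and 5), no filter and a minimum mean of 50, TMM scaling (an unweighted version), quantile normalization, eBayes without a trend, the replicate number as a block, and each sample left out. Code was tested on simulated data.

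The genes, their roles and the other pathway genes were chosen with earlier results of these data known. Values per sample are given for genes with an unadjusted p under 0.05, for the highest mean and the largest change in each direction (mean of at least 50) within each role, and for the IFIT, IFITM, receptor, heavy chain and proteasome genes. Values of *Irf7*, *Isg15*, *Usp18*, *Parp14* and *Tap2* in every sample were added after they were seen. A withheld item is not reported here. Exon lengths, overlaps and shared 50-base stretches came from GENCODE M21 and promoters from RefSeq, both on GRCm38, whose coordinates are not those of mm9.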

Additional observations from a re-analysis of the deposited data

How the results depend on the processing

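Few reads limit the precision of *Xaf1*, *Parp14* and *Psmb8*, with as few as 10, 2 and 12 in a sample. The values for *Xaf1* and *Parp14* are from WT 1, the deepest sample. Over the 8 alternatives that kept 4 samples, the count of higher genes among the 41 stayed at 9 and that of lower genes at 1, except that eBayes without a trend gave 5 and 0. That setting gave 7 higher and 1 lower of the 80 other pathway genes, against 4 and 3, and quantile normalization gave 1 lower. Over all genes tested, the setting without a trend gave 2.7% higher and 2.71% lower, and quantile normalization 2.81% lower. Quantile normalization also moved the median log2 fold change of the class I genes from 0.55 to 0.66 and turned those of *Ifnar1* to 0.11 and *Ifngr1* to 0.053. Without a trend, *B2m*, *Ifih1*, *Ifitm3*, *Irf3*, *Tapbp*, *Calr* and *Traf6* no longer passed, and under quantile normalization *Calr* and *Traf6* did not. The causes were not tested.

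With 1 sample left out, where the lone sample is assumed to vary like the others, the counts of higher and lower genes moved among the 41 and among the 80. Medians of the log2 fold change lay between 0.32 and 0.51 over all 41 genes, and ranged from -0.34 to 0.18 for sensors, -0.31 to 0.03 for receptors, -0.14 to 0.51 for transcription factors, 0.35 to 0.59 for effectors and 0.53 to 0.86 for class I genes. The log2 fold change of *Foxq1* ranged from -5.66 to -3.28. The sign turned in 13 of the 41 genes: *Ddx58* (from -0.15 to 0.18), *Eif2ak2* (from -0.75 to 0.44), *Stat2* (from -1.18 to 0.31), *Bst2* (from -0.61 to 0.32), *Samd9l* (from -0.42 to 0.96), *Tap2* (from -0.50 to 0.92), *H2-D1* (from -0.073 to 0.21), *H2-K1* (from -0.20 to 0.63), *Ifit2* (from -0.041 to 1.62), *Ifnar1* (from -0.15 to 0.15), *Ifngr1* (from -0.22 to 0.20), *Irf9* (from -0.57 to 0.65) and *Rsad2* (from -1.86 to 0.16).

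The labels do not say whether the replicate numbers pair the samples. The deviations of same-numbered samples correlated at 0.032 over 12472 genes, which cannot settle whether they share a litter or batch. With the replicate number as a block, 9 of the 41 genes were higher and 1 lower, and among the 80, 3 were higher and 3 lower, with *Sp100* no longer passing. The edgeR and DESeq2 alternatives were not run.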
